A study of Homo sapiens with 4 samples.

Results

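The genes described here are 46 genes for human chromatin remodelers other than INO80 and for subunits listed as shared with INO80. They were chosen by name: 13 genes of SWI/SNF, 7 of ISWI, 11 of the CHD family and NuRD, 8 of SRCAP and TIP60, 5 that are shared with INO80, and 2 further ATPases of the Snf2 family. Probes were assigned to a gene through their transcript accession. By this match 75 probes measured 44 of the 46 members, out of 17721 genes named on the array. No probe was matched to *SMARCD2* or *MBD3*, and the expression of these 2 genes is not analysed here. A match by accession does not show that the array lacks a probe for them. On each of the 4 arrays all 75 probes were well above background, so no member was lost to the filter on dim probes, and 12969 of all named genes had such a probe.

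Total RNA of Nalm-6, a human pre-B cell line, was hybridized to Agilent single-color arrays without any stress treatment. Wild-type cells, Arp5 KO cells and Arp8 KO cells gave 1 array each. In both KO cell lines homologous recombination had been used to disrupt the targeted gene. Another array is labelled Arp8 overexpression. The description of the series places it in Arp8-knockout cells that had received a Tet-Off system for Arp8. Hemin-treated cells are not analysed here. The values deposited by the authors are processed signals from the scanner software, an intensity with the background already subtracted. A level is given below as the log2 processed signal minus the 75th percentile of its array, and the level of a gene is the median over its probes. That percentile was at 1980.5 units for wild-type cells, 1950.0 for the Arp5 KO line, 2004.1 for the Arp8 KO line and 2012.2 for the array labelled Arp8 overexpression. Levels of different probes are not comparable with each other, and only differences between arrays are read.

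Since every genotype was hybridized once, no difference has a replicate check, no p-value is given, and the number of arrays limits the precision. All 4 arrays lay on 1 slide and came from 1 scan. The error that the arrays themselves hold is given beside the ratios. Repeated spots of 1 probe gave, for Arp5 KO over wild type, a log2 ratio with a median SD of 0.03 where both signals were at least 500 units (145 probes), 0.06 from 50 to 500 units (38 probes) and 0.44 below 50 units (81 probes). Different probes of 1 gene gave, for the same comparison, a median SD of 0.11 over 4714 named genes with several probes and 0.10 over the 21 members with several probes. The other 23 measured members had 1 matched probe, so no other probe checks their ratios. Among them were *CHD3*, *CHD4*, *SMARCA5*, *SMARCA1*, *HELLS*, *KAT5*, *RUVBL2*, *YEATS4* and *VPS72*. The share of all named genes beyond the same fold is the remaining measure. None of them holds the variation between cultures or clones.

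Chromatin remodelers use ATP to slide, evict or exchange nucleosomes, and each family is built around an ATPase of the Snf2 type. SWI/SNF opens regulatory DNA, ISWI and CHD enzymes space nucleosomes, NuRD couples remodeling with histone deacetylation, and SRCAP and TIP60 deposit the histone variant H2A.Z, which INO80 acts on as well. Actin-related proteins and the RUVBL ATPases occur in several of these complexes, INO80 among them.

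The targeted genes were examined first. *ACTR5*, the gene for Arp5, had a level of -0.05 in wild-type cells, -4.90 in the Arp5 KO line, -0.12 in the Arp8 KO line and 0.05 on the array labelled Arp8 overexpression, by probe A_23_P165952. It was thus low on the Arp5 KO array only. *ACTR8*, the gene for Arp8, had levels of -0.86, -0.97, -1.35 and -1.57 by probe A_23_P80694 and of 0.12, 0.20, -0.28 and -0.12 by probe A_24_P131697, in the same order of arrays. Both probes were lower than in wild-type cells on the Arp8 KO array and on the array labelled Arp8 overexpression. Whether the probes lie in the disrupted or the introduced part of the gene is not known here, so they do not check these 2 labels, and the name "array labelled Arp8 overexpression" is kept. The pre-B cell markers *PAX5*, *EBF1*, *VPREB1* and *CD79A* were well above background on all 4 arrays. Their levels were not constant. *VPREB1* had log2 ratios to wild-type cells of -0.13 in the Arp5 KO line, -0.61 in the Arp8 KO line and 0.15 on the array labelled Arp8 overexpression, and *CD79A* had -0.56, -0.13 and 0.50. In the Arp8 KO array over the one labelled Arp8 overexpression they had -0.75 and -0.63. Pre-B cell markers went both ways in that comparison: *DNTT* had 0.60, *RAG1* 0.22 and *MME* 0.18, whereas *CD79B* had -0.37. *EBF1* had -0.15, -0.30 and -0.38 to wild-type cells, and *PAX5* had 0.21, 0.02 and 0.04. The *EBF1* ratios use the median over its 2 probes. The higher of these probes on each array had levels of 3.26, 3.30, 3.15 and 3.08, in the order of arrays above. By these levels Arp5 KO cells lay above wild-type cells, so no direction is given for *EBF1* there. *CD3D* and *CD3G* of T cells, *MPO* of myeloid cells and *HBB* of erythroid cells were well above background on none. Other markers of the same lists were well above background on all 4 arrays, *CD3E* and *CD8A* of T cells, *CD14*, *LYZ* and *CSF1R* of myeloid cells and *ALAS2* and *EPOR* of erythroid cells. The summed signal of the 4 myeloid markers was 194 units in wild-type cells, 188 in the Arp5 KO line, 287 in the Arp8 KO line and 282 on the array labelled Arp8 overexpression, and that of the 4 T cell markers was 187, 187, 163 and 183. Among the myeloid markers *LYZ* had log2 ratios to wild-type cells of 1.35 in the Arp8 KO line and 1.31 on the array labelled Arp8 overexpression, and *CSF1R* had 0.53 and 1.17. *CSF1R* was below 50 units on these arrays, where repeated spots had a median SD of 0.46 and 0.44 for these comparisons. *CD14* had 0.02 and -0.14. The part of the pre-B and myeloid markers in the results on the members was not tested.

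Few members differed from wild-type cells by more than 1.5-fold, a log2 ratio of 0.585. In Arp5 KO cells none of the 44 measured members was higher and 1 was lower, while among all named genes 3.99% were higher and 3.32% were lower. In Arp8 KO cells 0 members were higher and 2 were lower, against 5.12% and 5.1% of all named genes. On the array labelled Arp8 overexpression 0 were higher and 1 was lower, against 5.14% and 4.9%. Between the Arp8 KO array and the one labelled Arp8 overexpression no member was beyond 1.5-fold in either direction, against 2.98% higher and 3.65% lower. The counts of lower members are near or below the share among all named genes, and those of higher members are below it. Under quantile normalization and in the authors' table *HELLS* was lower as well in Arp8 KO cells, and 3 of the 44 members against 631 and 712 of the 12969 named genes is slightly above the share among all named genes. At 2-fold, 0 members were called in the Arp5 KO line, 1 in the Arp8 KO line, 1 on the array labelled Arp8 overexpression and 0 between the latter and Arp8 KO cells. The same threshold took 1.95%, 2.88%, 3.03% and 1.51% of all named genes.

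Below this threshold the members lay slightly under all named genes. In Arp5 KO cells the members had a median log2 ratio over wild type of -0.081, against 0.022 over all named genes, and 32 of the 44 members (72.7%) were below 0 against 46.3% of all named genes. In Arp8 KO cells the medians were -0.12 and 0.028, with 36 members (81.8%) below 0 against 45.9%. On the array labelled Arp8 overexpression they were -0.13 and 0.033, with 32 members (72.7%) below 0 against 45.2%. These 3 comparisons share the wild-type array, so a deviation of that array would enter each of them. The Arp8 KO array over the one labelled Arp8 overexpression, which does not use the wild-type array, gave a median of -0.091 over the members and -0.0004 over all named genes, with 28 members (63.6%) below 0 against 50.1%. These counts go by the sign of the gene value. Of the 21 members with several probes, 12, 9, 9 and 4 had probes on both sides of 0, in the order of comparisons above. *SMARCC2*, *RSF1* and *UCHL5*, for which no direction is given below, count as below 0 in both KO cell lines. The members also spread less than the whole. The SD of their log2 ratios was 0.20 in the Arp5 KO line, 0.28 in the Arp8 KO line, 0.24 on the array labelled Arp8 overexpression and 0.20 between the last 2, against 0.36, 0.42, 0.42 and 0.32 over all named genes. Signal strength differs between these sets, and over the 6915 named genes with a mean signal over 1000 units the SD was 0.27, 0.32, 0.31 and 0.26 in the same order. Their medians were 0.022, 0.027, 0.052 and -0.021, with 3178, 3149, 2820 and 3749 of them below 0 (54.2% in the last), so that in the comparison without the wild-type array the bright genes lay nearer to the members than all named genes did. The 34 members of 1000 units or more, a set added after seeing the data, had medians of -0.0925, -0.11, -0.068 and -0.077. The difference between members and all named genes was not tested.

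**Figure D1:**
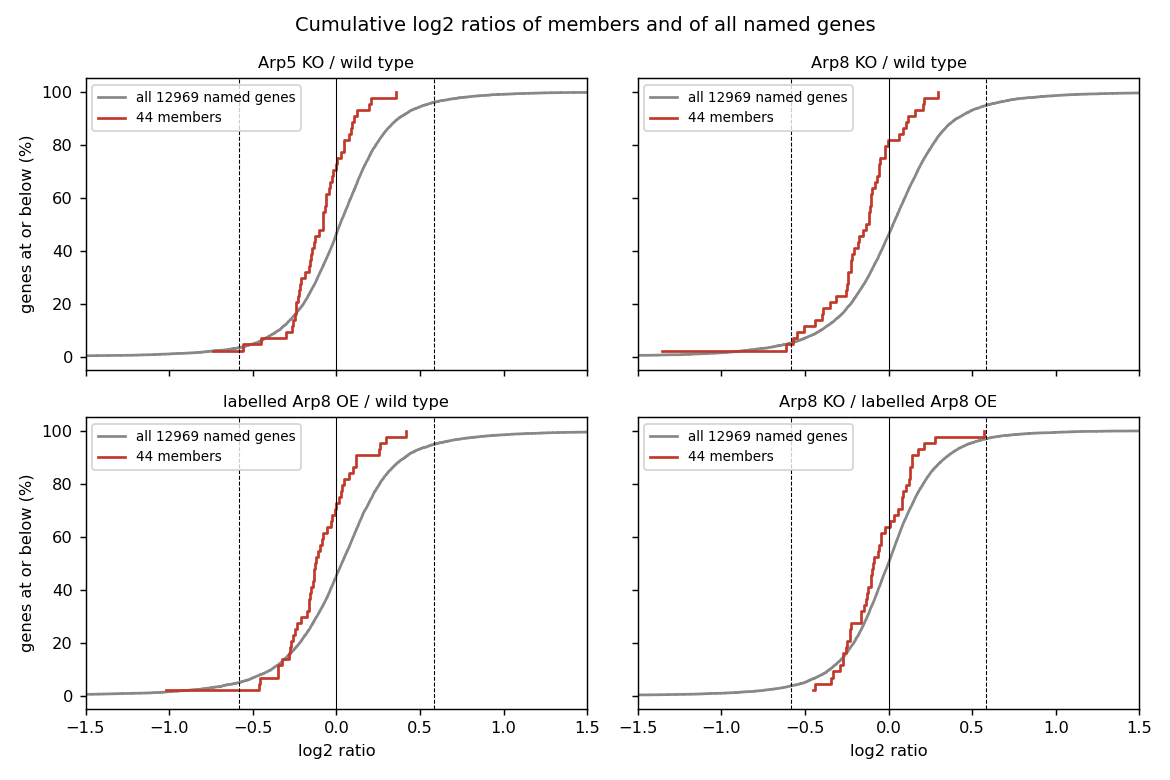
Cumulative share of genes (%, vertical axis) at or below each log2 ratio (horizontal axis) for the 44 measured members (red) and all 12969 named genes (grey), in 4 comparisons of 1 array with 1 array, with dashed lines at 1.5-fold. The red curve crosses 0 at 72.7%, 81.8%, 72.7% and 63.6%, above the grey curve in each panel, and ends inside the upper dashed line in all 4.

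The CHD family holds the members that passed the threshold. *CHD3* encodes an ATPase of NuRD, the remodeler that also carries histone deacetylases. Its only matched probe, A_23_P21640, had levels of -0.54 in wild-type cells, -1.28 in the Arp5 KO line, -1.89 in the Arp8 KO line and -1.56 on the array labelled Arp8 overexpression, from signals of 1362, 805, 540 and 683 units. Wild-type cells had the highest level and Arp8 KO cells the lowest. Over wild-type cells the log2 ratios were -0.74, -1.35 and -1.02, and only 273, 76 and 177 of the 12969 named genes had a lower ratio. Over the array with the overexpression label the ratio in Arp8 KO cells was -0.33, which is within 1.5-fold. Each of these differences exceeded the spread of repeated spots at this brightness, but 1 probe on 1 array per genotype gives no check by another probe or culture. Without *CHD3*, a setting chosen after seeing the data, 0 members were beyond 1.5-fold in the Arp5 KO line, 1 in the Arp8 KO line and 0 on the array labelled Arp8 overexpression.

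*CHD2*, a nucleosome-spacing ATPase, was the other member beyond the threshold. Probe A_24_P264664 had levels of 0.84 in wild-type cells, 0.62 in the Arp5 KO line, 0.15 in the Arp8 KO line and 0.77 on the array labelled Arp8 overexpression, and probe A_24_P85317 had -4.36, -4.52, -4.90 and -4.62. By both probes the level was lowest in Arp8 KO cells. As the median over probes the log2 ratio over wild type was -0.61 in Arp8 KO cells, with -0.69 and -0.53 for the probes, so that A_24_P85317 alone did not reach the threshold. It was -0.19 in the Arp5 KO line and -0.16 on the array labelled Arp8 overexpression. For the Arp8 KO array relative to the one labelled Arp8 overexpression the probes gave -0.62 and -0.28. Under normexp background correction the ratio in Arp8 KO cells to wild-type cells was -0.53, inside the threshold.

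The promoters of these genes are printed because they are the members with the largest differences. They come from a table of RefSeq promoters on build GRCh38.p14, in which 35 of the 46 members had an entry (*SMARCD2* and *MBD3* included), and cover 170 bases before the annotated start and 30 bases from it. *CHD3* lies at chr17:7888619-7888818 on the plus strand and *CHD2* at chr15:92900154-92900353 on the plus strand. Capitals mark the motifs found on either strand: the YY1 core ATGGCGGC, the NRF1-like motif (GCGC, any 2 bases, GCGC), the ETS core CCGGAAG, the CCAAT box, the GC box GGGCGGG and the TATA box TATAAA. The motifs and the promoters shown were chosen after the values were seen. Overlapping matches are marked together.
CHD3: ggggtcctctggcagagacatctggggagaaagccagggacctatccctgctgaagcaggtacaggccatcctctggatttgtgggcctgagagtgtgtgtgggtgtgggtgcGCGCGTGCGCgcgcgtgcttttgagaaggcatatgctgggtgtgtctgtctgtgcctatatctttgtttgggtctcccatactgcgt
CHD2: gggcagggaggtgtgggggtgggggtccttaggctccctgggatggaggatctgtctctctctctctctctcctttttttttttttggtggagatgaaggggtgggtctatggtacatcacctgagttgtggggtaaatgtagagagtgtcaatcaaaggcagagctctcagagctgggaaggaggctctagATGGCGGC
The *CHD3* window holds the NRF1-like motif, which occurs in 8.78% of all 27305 promoters (250 bases before to 50 after the start) and in 10 of the 35 member promoters. The *CHD2* window ends with the YY1 core, which occurs in 3.21% of all promoters and in 2 of the 35, *CHD2* and *SMARCD1*. A match is a description of the letters only.

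The gene ratios of the other CHD and NuRD members lay inside the threshold on every array. *CHD4*, the main ATPase of NuRD, had levels of 3.19 in wild-type cells, 3.20 in the Arp5 KO line, 3.31 in the Arp8 KO line and 3.45 on the array labelled Arp8 overexpression. Against wild-type cells the log2 ratios were 0.003, 0.12 and 0.26. The ratio of 0.003 in Arp5 KO cells was negative under quantile normalization, under no scaling, with the percentile taken over bright probes (those well above background) and in the authors' table. The subunits *MTA1* and *MTA2* of NuRD had ratios of 0.12 and -0.21 in Arp5 KO and of -0.10 and -0.11 in Arp8 KO cells. *CHD1*, which spaces nucleosomes behind the polymerase, had -0.23, -0.25 and -0.28, a nearly even difference from wild-type cells. The remaining genes *CHD6*, *CHD7*, *CHD8* and *CHD9* had gene ratios between -0.35 and 0.05 to wild-type cells. Of the 10 measured CHD and NuRD genes, 7 were below 0 in the Arp5 KO line, 9 in the Arp8 KO line and 8 on the array labelled Arp8 overexpression, with medians of -0.07, -0.16 and -0.15.

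**Figure D2:**
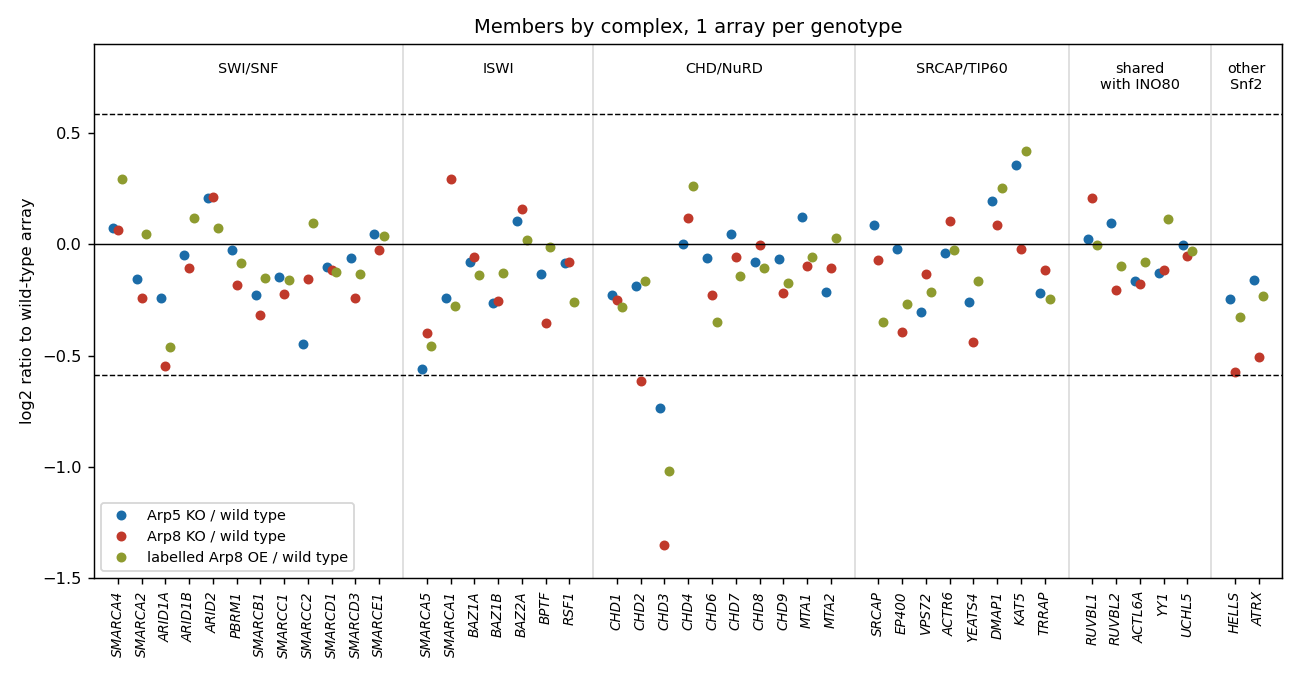
log2 ratio to the wild-type array (vertical axis) of each of the 44 measured members, grouped by complex, for Arp5 KO cells (blue), Arp8 KO cells (red) and the array labelled Arp8 overexpression (olive), where each point is 1 array over the same wild-type array and dashed lines mark 1.5-fold. *CHD3* lies below the lower line in all 3, with -0.74, -1.35 and -1.02, *CHD2* lies below it in Arp8 KO cells with -0.61, and no point lies above the upper line.

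Both ISWI ATPases were measured. *SMARCA5*, the widely used ISWI ATPase known as SNF2H, had levels of 0.90 in wild-type cells, 0.34 in the Arp5 KO line, 0.50 in the Arp8 KO line and 0.44 on the array labelled Arp8 overexpression. Wild-type cells were again highest, and the other 3 arrays lay close together. Over wild-type cells the log2 ratios were -0.56, -0.40 and -0.46. The ratio in Arp5 KO cells was just inside 1.5-fold, and in the authors' table it was -0.60, beyond it. *SMARCA1*, the paralog SNF2L, was dim, with signals of 18.1, 15.1, 22.5 and 15.2 units. Its log2 ratios were -0.24, 0.29 and -0.28 to wild-type cells and 0.57 in the Arp8 KO array over the one labelled Arp8 overexpression. At this brightness the median SD of repeated spots was 0.40 for the last comparison, so these values do not separate the arrays. Among the accessory subunits, *BAZ1B* of WICH had -0.26 in both KO cell lines, and *BPTF*, the large subunit of NURF, had -0.13 in the Arp5 KO line and -0.35 in the Arp8 KO line. *BAZ1A* of ACF was measured by a probe with 10 spots. Its log2 ratio was -0.06 in Arp5 KO cells (SD of 9 spots 0.03) and -0.05 in Arp8 KO cells (SD 0.02) over the spots kept on both arrays. *BAZ2A* had 0.11 and 0.16, and *RSF1* had -0.08 in both KO cell lines. The brightest of the 3 *RSF1* probes gave 0.28 and 0.20, so no direction is given for *RSF1*.

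In SWI/SNF, the alternative ATPases *SMARCA4* (BRG1) and *SMARCA2* (BRM) were examined. *SMARCA4* had levels of 4.55 in wild-type cells, 4.62 in the Arp5 KO line, 4.61 in the Arp8 KO line and 4.84 on the array labelled Arp8 overexpression, with log2 ratios over wild type of 0.07, 0.06 and 0.30. Its 3 probes ranged from -0.21 to 0.15 in Arp5 KO cells and from -0.12 to 0.14 in Arp8 KO cells. On the array labelled Arp8 overexpression they ranged from 0.07 to 0.30, so the gene ratio there equals the highest of them. *SMARCA2* had levels of -0.70, -0.86, -0.94 and -0.65, with log2 ratios of -0.15, -0.24 and 0.05. Neither ATPase was beyond 1.5-fold on any array. The probes of *SMARCA2* gave -0.35 and 0.05 in Arp5 KO cells, so its direction there depends on the probe. *ARID1A*, the DNA-binding subunit of the BAF form, was closest to the threshold in this group. Its gene levels were 0.87, 0.63, 0.32 and 0.41, and the ratio in Arp8 KO cells was -0.55, whereas its probes gave -0.55, -0.27 and -0.24. The gene level is the median of levels and here follows probe A_24_P92952 on each array. *ARID2*, of the PBAF form, was above wild-type cells by 0.21 in both KO cell lines, and *PBRM1* of the same form was at -0.03 and -0.18. The core subunit *SMARCB1* had -0.23 and -0.32, the scaffold *SMARCC1* had -0.15 and -0.22, and *SMARCE1* had 0.04 and -0.02. *ARID1B*, *SMARCD1* and *SMARCD3* lay between -0.24 and -0.05 in the KO cell lines. By gene value, 9 of the 12 measured SWI/SNF genes were below 0 in the Arp5 KO line. There were 10 in the Arp8 KO line and 6 on the array labelled Arp8 overexpression.

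*SMARCC2*, the other scaffold, shows how far probes of 1 gene can part. Probe A_24_P129813 had levels of 4.25 in wild-type cells, 4.83 in the Arp5 KO line, 4.75 in the Arp8 KO line and 4.89 on the array labelled Arp8 overexpression, so wild-type cells were lowest. Probe A_23_P128073 had 2.07, 1.62, 1.91 and 2.17, and A_23_P116682 had -3.35, -3.82, -3.60 and -3.44, with Arp5 KO cells lowest. The log2 ratios in Arp5 KO cells were 0.58, -0.45 and -0.47, and no direction is given for *SMARCC2*. *CHD9* was similar, with 4 probes between -0.56 and 0.43 in Arp5 KO cells and between -0.58 and 0.14 in Arp8 KO cells. Both genes were singled out after their values were seen. Of the 21 members with several probes, 12 had probes on both sides of 0 in Arp5 KO cells (*SMARCA4*, *SMARCA2*, *SMARCC2*, *BPTF*, *RSF1*, *CHD6*, *CHD7*, *CHD8*, *CHD9*, *EP400*, *UCHL5* and *MTA1*) and 9 in Arp8 KO cells (*SMARCA4*, *SMARCC2*, *SMARCE1*, *RSF1*, *CHD6*, *CHD8*, *CHD9*, *UCHL5* and *MTA1*). On the array labelled Arp8 overexpression 9 had such probes, and between Arp8 KO cells and that array 4 did.

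The calls were also counted by probe, beside the share among all 19272 named probes well above background on every array. In the Arp5 KO line 0 of the 75 member probes were higher beyond 1.5-fold and 1 was lower, against 3.68% and 3.49% of all named probes. In the Arp8 KO line 0 were higher and 3 were lower, against 4.68% and 5.27% of those probes. On the array labelled Arp8 overexpression 1 was higher and 2 were lower, against 4.81% and 5.02%. Between Arp8 KO cells and that array 0 were higher and 2 were lower, of *CHD2* and *CHD9*, against 2.72% and 3.61%. The *CHD9* probe called there, A_23_P354929, had signals of 24 and 37.1 units, where the median SD of repeated spots was 0.40. In each comparison the counts are thus near or below the share among all named probes.

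**Figure D3:**
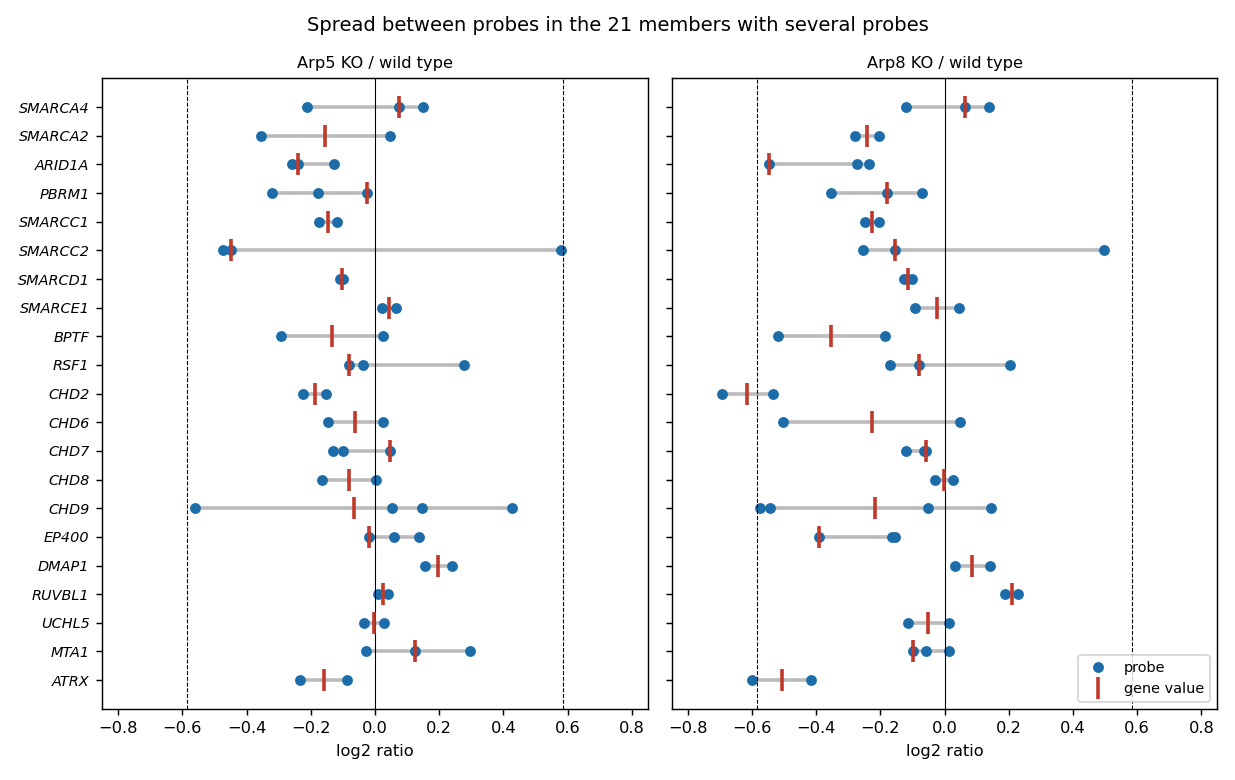
log2 ratio to wild-type cells (horizontal axis) of every probe (blue points) of the 21 members with several probes, in Arp5 KO cells (left) and Arp8 KO cells (right), with the gene value used in the text (red marks) and the range over probes (grey bars), with dashed lines at 1.5-fold. The widest range in Arp5 KO cells is that of *SMARCC2*, from -0.47 to 0.58, and both *CHD2* probes lie near the lower dashed line in Arp8 KO cells.

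The subunits of SRCAP and TIP60, which place H2A.Z and acetylate histones, lay inside the threshold on all arrays. *SRCAP*, the ATPase of its complex, had levels of -1.44 in wild-type cells, -1.35 in the Arp5 KO line, -1.51 in the Arp8 KO line and -1.79 on the array labelled Arp8 overexpression. *EP400*, the ATPase of TIP60, had -0.99, -1.01, -1.38 and -1.26. *SRCAP* was lowest on the array labelled Arp8 overexpression, with a log2 ratio of -0.35, and *EP400* was lowest in Arp8 KO cells, with -0.39 for the gene and between -0.39 and -0.15 over its 3 probes. *KAT5*, the acetyltransferase of TIP60, had levels of 1.30, 1.66, 1.28 and 1.72 by its only matched probe. Wild-type and Arp8 KO cells were thus about level, while the Arp5 KO array and the one labelled Arp8 overexpression were higher, with log2 ratios of 0.36 and 0.42, the largest positive ones among the members in these comparisons with wild type. In Arp8 KO cells the ratio of *KAT5* was -0.02 to wild-type cells and -0.44 to the array labelled Arp8 overexpression. The reader *YEATS4* had -0.26 in the Arp5 KO line and -0.44 in the Arp8 KO line, the H2A.Z chaperone *VPS72* had -0.30 and -0.13, and the scaffold *TRRAP* had -0.22 and -0.11. *DMAP1* was higher, with 0.20 and 0.09, and *ACTR6*, the actin-related protein of SRCAP, had -0.04 and 0.10. Over the 8 genes the medians were -0.03 in the Arp5 KO line, -0.09 in the Arp8 KO line and -0.19 on the array with the overexpression label.

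The gene ratios of the 5 subunits shared with INO80 lay between -0.23 and 0.21 in all 4 comparisons. *RUVBL1* and *RUVBL2* encode the ATPases that form a ring in INO80, SRCAP and TIP60. *RUVBL1* had levels of -0.67 in wild-type cells, -0.64 in the Arp5 KO line, -0.46 in the Arp8 KO line and -0.67 on the array labelled Arp8 overexpression. Its log2 ratio in Arp8 KO cells was 0.21 both to wild-type cells and to the array with the overexpression label, and the probes gave 0.23 and 0.19 to wild-type cells. *RUVBL2* had levels of 3.46, 3.55, 3.25 and 3.36, with a log2 ratio of -0.21 in Arp8 KO cells, so the partners of 1 ring had ratios of opposite sign there. *ACTL6A*, which encodes the actin-related protein Arp4 of INO80, TIP60 and SWI/SNF, had levels of 3.85, 3.68, 3.67 and 3.77 and ratios of -0.16, -0.18 and -0.08. The transcription factor *YY1* had levels of 2.29, 2.16, 2.18 and 2.41, and its largest ratio was -0.23 in the Arp8 KO array over the one labelled Arp8 overexpression. *UCHL5*, a deubiquitinase of INO80 and the proteasome, had levels of 1.16, 1.16, 1.11 and 1.13. Its probe with 10 spots gave -0.03 in Arp5 KO cells (SD 0.02) and -0.12 in Arp8 KO cells (SD 0.02), whereas its other probe gave 0.03 and 0.01, so no direction is given for *UCHL5*. The median over the 5 genes was -0.0027 for the Arp5 KO line, -0.11 for the Arp8 KO line and -0.031 on the array with the overexpression label.

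The promoter of *HELLS* is printed as well, since this gene had 1 ratio just inside the threshold. *SMARCA5* and *SMARCA1* also had a ratio just inside it, but their promoters are not printed. The *HELLS* promoter comes from the same RefSeq build and positions relative to the start. *HELLS* lies at chr10:94545618-94545817 on the plus strand.
HELLS: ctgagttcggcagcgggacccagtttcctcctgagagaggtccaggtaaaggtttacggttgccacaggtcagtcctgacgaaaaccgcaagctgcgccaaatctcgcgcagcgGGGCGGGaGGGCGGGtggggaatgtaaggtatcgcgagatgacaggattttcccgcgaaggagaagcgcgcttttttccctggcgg
Capitals mark the same motifs. *HELLS* shows the GC box, which occurs in 32.9% of all promoters and in 20 of the 35 member promoters. CCAAT occurs in 35.7% of all promoters and in 12 of the 35. The ETS core was found in 10.7% of all promoters and in 7 of the 35, and in none of the 3 printed windows. TATAAA was found in 3264 of all promoters and in 1 of the 35. Counts over promoters include bases beyond those printed, where *HELLS* has a CCAAT box. The members without an entry in the promoter table are *ACTL6A*, *ARID2*, *ATRX*, *BAZ1A*, *BPTF*, *CHD6*, *CHD7*, *SMARCC1*, *SMARCC2*, *TRRAP* and *VPS72*.

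*HELLS* and *ATRX* are Snf2 ATPases outside the large complexes. *HELLS*, a remodeler needed for DNA methylation at repeats, had levels of 1.37 in wild-type cells, 1.13 in the Arp5 KO line, 0.80 in the Arp8 KO line and 1.05 on the array labelled Arp8 overexpression. *ATRX*, which deposits a histone H3 variant in heterochromatin, had gene levels of -0.88, -1.04, -1.39 and -1.11. Both genes were highest in wild-type and lowest in Arp8 KO cells. The log2 ratios in Arp8 KO cells were -0.57 for *HELLS* and -0.51 for *ATRX*, with -0.60 and -0.42 for the probes of *ATRX*. *HELLS* passed 1.5-fold there under quantile normalization, with -0.59, in the authors' table, with -0.59, and under normexp, with -0.64. Over the array with the overexpression label the ratios in Arp8 KO cells were -0.25 and -0.27. On that array *ATRX* had -0.49 to wild-type cells by probe A_23_P136874 and 0.02 by A_24_P348660, so its direction there depends on the probe.

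**Figure D4:**
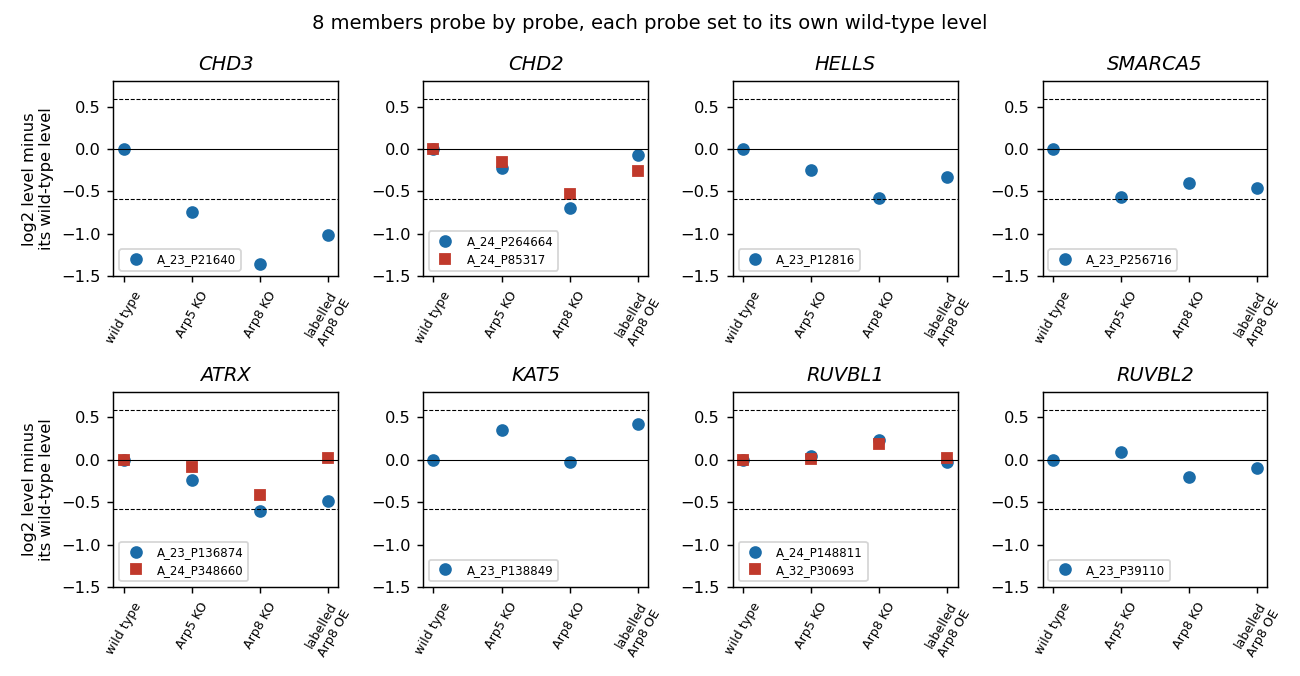
log2 level minus the wild-type level of the same probe (vertical axis) on the 4 arrays (horizontal axis) for 8 members, with 1 marker shape per probe and dashed lines at 1.5-fold. *CHD3* is at -1.35 on the Arp8 KO array, *KAT5* is at 0.36 and 0.42 on the Arp5 KO array and the array labelled Arp8 overexpression, and *RUVBL1* and *RUVBL2* lie between -0.21 and 0.23.

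Other genes of these pathways that are not members were read in the same way, from 5 lists with 50 measured genes. In Arp5 KO cells 1 was higher and 0 were lower beyond 1.5-fold, against 3.99% and 3.32% of all named genes, with a median of -0.059. In Arp8 KO cells 2 were higher and 1 was lower, against 5.12% and 5.1%, with a median of -0.098. On the array labelled Arp8 overexpression 1 was higher and 0 were lower, against 5.14% and 4.9%, with a median of -0.033. Between the Arp8 KO array and the latter 0 were higher and 0 were lower, against 2.98% and 3.65%, with a median of -0.10. These counts are near or below the shares among all named genes. Their medians were thus also below those of all named genes. The gene with the largest ratios was *BAZ2B*, a bromodomain partner of ISWI, with log2 ratios over wild type of 0.72, 1.27 and 0.82. Among the other ISWI partners *CHRAC1* had -0.47 in Arp8 KO cells. Of the NuRD list, *MBD2*, which binds methylated DNA, had 0.31 in the Arp5 KO line and -0.62 in the Arp8 KO line, and *GATAD2B* had -0.46 on the array labelled Arp8 overexpression. On the same array *BCL7A* of SWI/SNF had 0.56 and *EPC1* of TIP60 had 0.56. *DPF1* of SWI/SNF had -0.43 in Arp8 KO cells, and *MBTD1* of TIP60 had 0.47 in the Arp8 KO array over the one labelled Arp8 overexpression. In the list of further Snf2 ATPases, *ERCC6* had 0.70 and *RAD54B* had -0.57 in Arp8 KO cells. The 10 subunits specific to INO80 had medians of 0.046 in the Arp5 KO line and 0.17 in the Arp8 KO line, with *ACTR5* at -4.85 in Arp5 KO cells and the ATPase *INO80* at 0.88 and 1.05 in the 2 KO cell lines. The shared subunits had no ratio of that size.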

How the data were processed

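Agilent single-color arrays of Nalm-6 cells were used, 1 per genotype. Per the file headers the authors had run Agilent Feature Extraction 10.5.1.1, and they deposited the processed signal of each spot, an intensity after background subtraction and spatial detrending, not scaled between arrays. Their table holds the same intensities times 1 factor per array, between 0.807 and 0.847, whose origin is not given in the sources used here. Its medians were 127.45 (wild type), 127.9 (Arp5 KO), 122.5 (Arp8 KO) and 119.1 (array labelled Arp8 overexpression).

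From the deposited intensities the log2 processed signal was taken minus its 75th percentile over the 43376 non-control spots. Spots marked as outliers were left out (between 63 and 153 per array), no spot was saturated, spots of 1 probe were averaged, and probes well above background on all 4 arrays were kept. Between 30394 and 31420 spots per array were well above background. The level of a gene is the median over its probes. Names came from the transcript accessions and the RefSeq gene table of GRCh38.p14, which matched 26222 of 41000 probes (64.0%), and coordinates are those of that build. Members beyond 1.5-fold in any comparison, the 5 shared subunits and 10 catalytic subunits were given with their values on every array, and of each list of other genes the 2 with the largest ratio in any comparison were named. The members and lists were chosen with earlier results of these data known. Some cell type markers and promoters are not reported here. No test was run. Alternatives were other scalings, the authors' table, normexp in limma 3.58.1 under R 4.3.3, other filters, other ways to join probes and a 2-fold threshold. The steps were tested on simulated data. Python 3.11.15, numpy 2.4.6, pandas 2.3.3 and matplotlib 3.10.9 were used.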

Additional observations from a re-analysis of the deposited data

How the results depend on the processing

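The medians over the members were below 0 in all 4 comparisons under all alternatives that recompute them and the 2 added after seeing the data. *CHD3* was lower beyond 1.5-fold in all 3 comparisons with wild-type cells under every alternative that keeps 1.5-fold and *CHD3* itself. At 2-fold the counts were 0 in the Arp5 KO line and 1 in the Arp8 KO line. In Arp5 KO cells the median was -0.11 under quantile normalization and -0.12 in the authors' table, where *SMARCA5* (lower) made the count 2. With those values 497 of the 12969 named genes were lower, so 2 of the 44 members is slightly above the share among all named genes. In Arp8 KO cells the median over the members was -0.16 under quantile normalization, and the count was 3 there and in the authors' table through *HELLS*. On the array labelled Arp8 overexpression it was -0.16 with the percentile over probes well above background, -0.17 in the authors' table and -0.075 by the brightest probe, which made the count 2 through *SMARCC2* (higher). By the brightest probe 690 of the 12969 named genes were higher and 654 were lower. With a mean of 100 units or more the count was 2 through *CHD9* (lower), where 464 of 10841 named genes were lower. For Arp8 KO cells over that array the median was -0.057 with the percentile over probes well above background, -0.054 under normexp and -0.060 by the brightest probe. The count became 1 through *SMARCA1*, higher, with that percentile and in the authors' table, and 1 through *CHD2*, lower, by the brightest probe and with a mean of 100 units or more. In the same order 463 and 436 of 12969 named genes were higher, and 468 of 12969 and 344 of 10841 were lower. Added settings kept 34 members of 1000 units or more, with counts of 0, 0 and 0 against wild-type cells and a median of -0.068 on the array labelled Arp8 overexpression, or left out *CHD3*, with counts of 0, 1 and 0. The cause of these differences was not tested. No scaling moved the median of all named genes by over 0.1. Among the named members 8 ratios changed sign under at least 1 alternative, the largest being *ATRX* on the array labelled Arp8 overexpression, from -0.23 to 0.02 by the brightest probe.

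Over all named genes, normexp on the median signals with an offset of 50 units called 469, 756, 711 and 447 genes beyond 1.5-fold in the 4 comparisons against 948, 1325, 1301 and 860, and no filter on dim probes called 2272, 2587, 2685 and 2037. A mean of 100 units or more left 627 in Arp5 KO cells, and 2-fold left 253, 373, 393 and 196. The alternative that adds probes by gene name was not run, because the columns used here hold none. Normexp used the median signal in place of the mean. No paired analysis was possible because the groups hold 1 array each. The slide holds all arrays, so no batch could be compared. Signal over background limits *SMARCA1*, at 15.1 to 22.5 units, and probe A_23_P354929 of *CHD9*, at 24 to 37.7 units, and 1 array per genotype limits every ratio.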
